A study of Mus musculus with 4 samples.

Results

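The genes described here encode proteins of the watery phase and the mucin coat of mouse milk: Wap (whey acidic protein), Lalba (alpha-lactalbumin), Wfdc18 (a small secreted protein with a whey acidic protein domain, also known as Expi), Glycam1 (a mucin-like glycoprotein of milk) and Muc15 (a membrane mucin of the milk fat globule). These 5 of the 27998 genes in the files were chosen by name, and all 5 were found once each by symbol. Their unique molecular identifier (UMI) counts, in which 1 UMI marks 1 captured RNA molecule, were compared between 4 libraries of single cells from MMTV-neu mice on the FvB background, whose mammary epithelium carries an Erbb2 (HER2, neu) transgene under the promoter of the mouse mammary tumor virus. The early lung and early lesion libraries came from lungs and mammary glands of mice aged 14 to 18 weeks with no palpable tumor. The late lung and primary tumor libraries came from lungs and breast tumors of tumor-bearing mice older than 20 weeks. Every mouse carried the transgene, no transgene-free group was included, and all 4 libraries held cells sorted as CD45- and HER2+. Each group had 1 library, so no comparison had a replicate check and every interval below covers counting error only. The number of mice behind a library and any past pregnancy are not stated in the sources used here.

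In the mammary gland, alveolar luminal cells make milk proteins under prolactin, which acts through its receptor and the transcription factor STAT5, together with glucocorticoid and contact with the basement membrane. Alpha-lactalbumin is the regulatory subunit of lactose synthase and so sets the production of milk sugar and much of the water of milk. Whey acidic protein is a major whey protein of rodents and a widely used marker of late alveolar differentiation. Milk genes do not all switch on at the same time in pregnancy: some appear early in the alveolar program and others, Wap among them, late.

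Wap, Lalba, Wfdc18 and Glycam1 had an entry in the promoter table used here (RefSeq, GRCm38.p6), and Muc15 did not. The sequences are shown because the 4 genes went different ways between the early lesion and the primary tumor. Each line gives, 5′ to 3′, up to 250 bases before the start of the gene, ending before both the RefSeq and the GENCODE M21 start, which left 212 bases for Lalba. Capitals mark matches, on either strand, to TTCNNNGAA (the STAT element), TTGGC (part of the site of the NFI factors, known for binding milk gene promoters) and TATAAA (the TATA box).
Wap, chr11:6638650-6638899, minus strand: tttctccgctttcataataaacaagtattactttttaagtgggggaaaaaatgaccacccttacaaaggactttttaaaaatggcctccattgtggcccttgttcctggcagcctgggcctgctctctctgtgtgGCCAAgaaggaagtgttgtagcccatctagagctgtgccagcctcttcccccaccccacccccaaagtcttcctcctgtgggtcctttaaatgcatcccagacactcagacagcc
Lalba, chr15:98482722-98482933, minus strand: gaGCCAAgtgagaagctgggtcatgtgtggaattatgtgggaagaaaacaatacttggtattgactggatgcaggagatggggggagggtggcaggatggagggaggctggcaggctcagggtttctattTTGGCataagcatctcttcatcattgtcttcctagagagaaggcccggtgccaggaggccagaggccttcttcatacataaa
Wfdc18, chr11:83708754-83709003, plus strand: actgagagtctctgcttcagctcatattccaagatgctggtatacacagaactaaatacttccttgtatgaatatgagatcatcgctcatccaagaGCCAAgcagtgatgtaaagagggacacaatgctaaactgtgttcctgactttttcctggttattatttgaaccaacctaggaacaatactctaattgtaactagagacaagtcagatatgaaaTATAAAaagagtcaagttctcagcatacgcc
Glycam1, chr15:103565082-103565331, minus strand: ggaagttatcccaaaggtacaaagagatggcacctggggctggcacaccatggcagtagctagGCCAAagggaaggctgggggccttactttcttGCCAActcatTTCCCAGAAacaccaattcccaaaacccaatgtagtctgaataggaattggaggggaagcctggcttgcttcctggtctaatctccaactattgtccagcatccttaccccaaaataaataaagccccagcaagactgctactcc

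TTCNNNGAA was found only in the Glycam1 window among these 4, at bases -145 to -137 from the RefSeq start, and in 7.02% of the 32851 windows of 250 bases in the table. TTGGC or its reverse complement was found 1 time before Wap, 2 times before Lalba, 1 time before Wfdc18 and 2 times before Glycam1, and 41.51% of all windows held it. TATAAA stood before Wfdc18 alone of the 4, at -31 to -26, and 12.37% of all windows held it. No match overlapped another. A match is a run of letters in this window and not a measured binding site. The TTGGC letters stood before all 4 genes, both those higher in the tumor (Lalba, Wfdc18) and those lower (Wap, Glycam1).

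By GENCODE M21 on mm10, all 5 are protein-coding genes. Wap (ENSMUSG00000000381) lies on chromosome 11 from 6635482 to 6638637 on the minus strand, and Wfdc18 (ENSMUSG00000000983) lies on the same chromosome from 83709015 to 83711348 on the plus strand. Lalba (ENSMUSG00000022991) lies on chromosome 15 from 98480400 to 98482721 and Glycam1 (ENSMUSG00000022491) on chromosome 15 from 103562759 to 103565081, both on the minus strand. Muc15 (ENSMUSG00000050808) lies on chromosome 2 from 110721340 to 110739527 on the plus strand. Of the transcripts of other genes in that release, 0 shared a stretch of 50 bases with a transcript of any of the 5, so the counts were not open to splitting with a close copy at that length.

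The libraries held 185 cells (early lung), 210 cells (late lung), 1318 cells (early lesion) and 434 cells (primary tumor) with at least 500 UMIs, at least 250 detected genes and at most 20% mitochondrial UMIs. Total UMIs per library ran from 743765 to 6366768, and the median UMIs of a cell from 772 to 2360. No pair of libraries shared a cell barcode. In the primary tumor, 18 cells of over 10000 UMIs held 54.5% of the UMIs in cells, against 6.50% in 21 such cells of the early lesion, so sums over tumor cells lean on few cells. Cells were clustered without the 5 genes and 31 other milk genes and named from marker lists. Mammary luminal-like clusters held 1194 of the early lesion cells and 332 of the primary tumor cells. With all genes in the clustering they held 664 and 329, and 624 lesion cells were then left unnamed. The sorted lung cells were mostly of lung classes: 0 early lung cells and 7 late lung cells were mammary luminal-like, and the largest classes there were alveolar type 1-like (61 and 93 cells) and endothelial-like (73 and 55 cells).

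**Figure D1:**
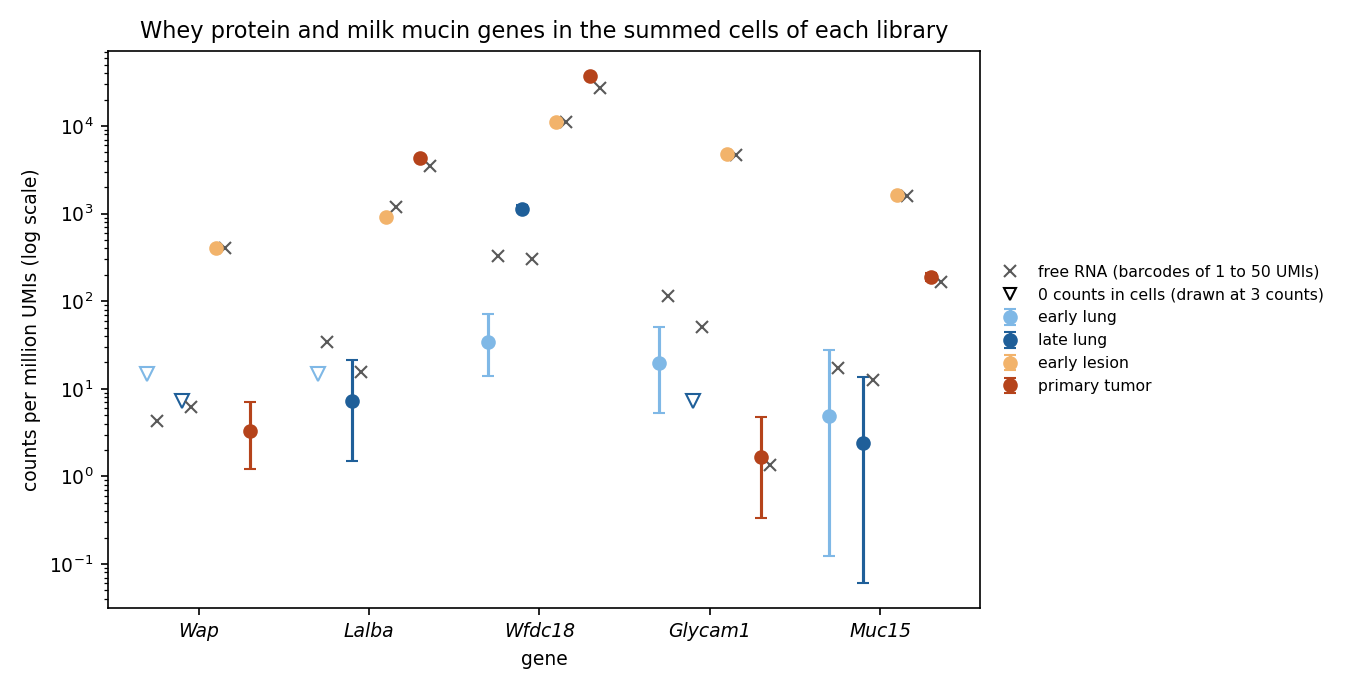
CPM (log axis) of the 5 genes in the summed cells of each library, with exact 95% Poisson intervals (points and bars), 0 counts drawn at 3 counts (open triangles) and the level in free RNA (crosses). Wap and Glycam1 are high only in the early lesion, Muc15 drops in the primary tumor, and Lalba and Wfdc18 are highest in the primary tumor.

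Between the early lesion and the primary tumor the whey and mucin genes parted. Glycam1 and Wap were nearly absent from the tumor, Muc15 was 8.45-fold lower, and Lalba and Wfdc18 were 4.73-fold and 3.29-fold higher. Levels are given as CPM, the count of a gene scaled to 1000000 UMIs of the summed cells of a library. A gene was called higher or lower where the ratio reached 2-fold and its exact 95% interval left out a ratio of 1. By that rule 2 of the 5 genes were called higher and 3 lower. Over all 9811 genes with at least 20 counts in both libraries together, 24.5% were called higher and 6.68% lower, and the median log2 ratio was 0.33. The split between higher and lower calls over all genes was 2401 to 655. It was 1653 to 1109 when each cell's own CPM was averaged with equal weight, 1156 to 816 without the cells of over 10000 UMIs, and 1135 to 982 in mammary luminal-like cells alone.

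Glycam1 had 18967 counts (4831 CPM, interval 4762 to 4900) in early lesion cells and 3 counts (1.64 CPM, interval 0.339 to 4.80) in primary tumor cells. It had 4 counts in early lung cells and 0 in late lung cells. The log2 ratio of tumor to lesion was -11.30 (interval -13.80 to -9.97), the lowest of the 9811 genes tested. The 3 tumor counts stood in 3 cells, which held 1507, 12269 and 26789 UMIs, against 1055 of 1318 lesion cells with a Glycam1 UMI. That is 80.1% of lesion cells, where free RNA at 10% of every lesion cell's UMIs would give 63.4%, and the Glycam1 level in lesion cells was 1.04 times that in the free RNA. After thinning every cell to 1000 UMIs, which left 1041 lesion and 312 tumor cells, 69.6% (exact Clopper-Pearson interval 66.8 to 72.4) of lesion cells and 0 of the tumor cells had a Glycam1 UMI, where 3 cells would make 0.962%.

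Wap had 1591 counts in lesion cells (405 CPM, interval 386 to 426) and 6 counts in tumor cells (3.29 CPM, interval 1.21 to 7.15). In the cells of both lung libraries its count was 0. The log2 ratio of tumor to lesion was -6.83 (interval -8.39 to -5.82). All 6 tumor counts stood in 3 cells of 38878, 78815 and 125434 UMIs. Without cells of over 10000 UMIs, the tumor had 0 Wap counts in 416 cells and the level was at least 108-fold lower than in the lesion, against a floor of 3 counts in the tumor sum. In mammary luminal-like cells alone it was at least 102-fold lower by the same floor.

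Muc15, whose protein carries sugar chains on the globule membrane, had 6334 counts (1613 CPM, interval 1574 to 1653) in the early lesion, 348 counts (191 CPM, interval 171 to 212) in the primary tumor and 1 count in each lung library. The log2 ratio of tumor to lesion was -3.08 (interval -3.24 to -2.93). Unlike Wap and Glycam1 it was still counted in part of the tumor: 17.3% of tumor cells had a Muc15 UMI, against 84.0% of lesion cells, and 10.3% against 71.6% at 1000 UMIs per cell. The 18 deep tumor cells held 255 of the 348 counts. Without cells of over 10000 UMIs the tumor level was 112 CPM and the log2 ratio -3.81, and in mammary luminal-like cells alone the tumor level was 75.8 CPM and the log2 ratio -4.43. Both of these tumor levels lay below the 165 CPM of Muc15 in the tumor's free RNA. All tumor cells together stood at 1.16 times the free RNA level.

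Lalba had 3560 counts in early lesion cells (907 CPM, interval 877 to 937) and 7835 counts in primary tumor cells (4291 CPM, interval 4197 to 4387). The lung libraries had 0 counts (early) and 3 counts (late). The log2 ratio of tumor to lesion was 2.24 (interval 2.19 to 2.30). The share of cells with a Lalba UMI was higher along with the level: 45.5% of lesion cells and 82.0% of tumor cells had one, and 31.6% (interval 28.8 to 34.5) and 77.9% (interval 72.9 to 82.4) at 1000 UMIs per cell. Before thinning, free RNA at 10% of every cell's UMIs would give 27.15% of lesion cells and 47.74% of tumor cells. The Lalba level in cells was 0.772 times that in free RNA in the lesion and 1.21 times in the tumor.

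Wfdc18 had 44024 counts in lesion cells (11212 CPM, interval 11108 to 11317) and 67308 counts in tumor cells (36864 CPM, interval 36586 to 37144). It had 7 counts in early lung cells and 469 in late lung cells. The log2 ratio of tumor to lesion was 1.72 (interval 1.70 to 1.74). Nearly every cell of both mammary libraries had a UMI of it at 1000 UMIs per cell, 97.5% of lesion cells and 99.04% of tumor cells, so the difference lay in the level per cell. Before thinning the shares were 97.19% and 99.31%, where free RNA at 10% of every cell's UMIs would give 84.47% and 94.85%. The 5 genes made 1.90% of the UMIs of lesion cells and 4.14% of those of tumor cells. Their makeup differed more than their sum, since Wfdc18 went from 59.1% to 89.2% of the UMIs of the 5 and Glycam1 from 25.5% to 0.00397%.

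**Figure D2:**
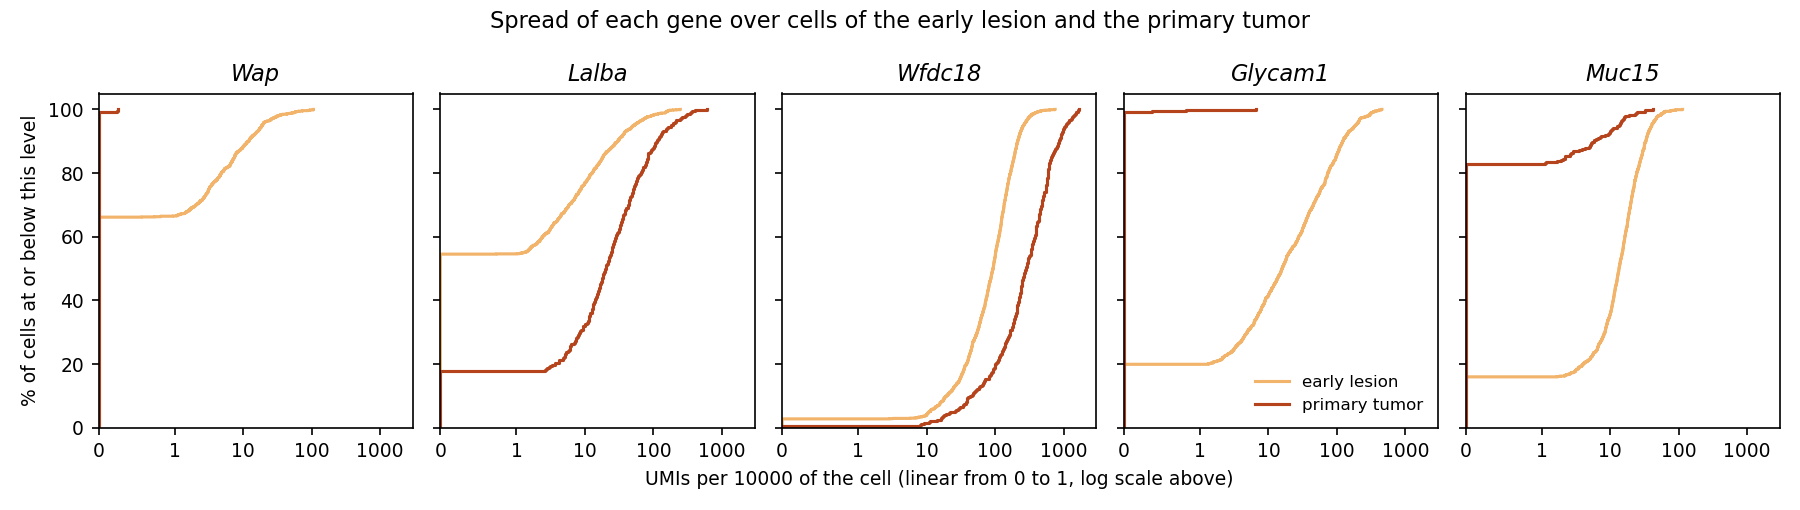
Cumulative share of cells (vertical axis, percent) at or below a level in UMIs per 10000 of the cell (horizontal axis, linear from 0 to 1 and logarithmic above) for each gene, in 1318 early lesion cells and 434 primary tumor cells. The tumor curve lies to the right of the lesion curve for Lalba and Wfdc18, and starts at over 99% for Wap and Glycam1, since 0.691% of tumor cells had a UMI of each.

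The 5 genes spread over cells in different ways. By the share in the highest cells, Wfdc18 and Muc15 were the most even of the 5 in the early lesion: the 132 cells highest in UMIs of the gene held 37.6% and 38.1% of its UMIs. Wap and Lalba were uneven there, with 72.7% and 69.3% of UMIs in their own 132 highest cells, and Glycam1 lay between them at 57.7%. At 1000 UMIs per cell, the variance over the mean across lesion cells was 1.41 for Muc15, 2.89 for Wap, 6.34 for Lalba, 6.80 for Wfdc18 and 10.2 for Glycam1, where counting noise alone gives a value near 1. At equal relative spread this value grows with the mean, which was 11.3 for Wfdc18. It therefore does not rank the genes by evenness.

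The median lesion cell had 93.2 Wfdc18 UMIs per 10000, and the cells at the lower and upper quartile had 45.3 and 149. The median tumor cell had 281, with quartiles of 134 and 550.0. The distributions overlapped, and 357 of 434 tumor cells lay above the lesion median. For Glycam1, 0 tumor cells lay above the lesion median of 15.8 per 10000. For Muc15, 22 tumor cells lay above the lesion median of 13.5 per 10000. The median tumor cell had 20.2 Lalba UMIs per 10000, while the median lesion cell had 0. Of the tumor cells, 168 exceeded the lesion's 90th percentile of Lalba, which was 30.2 per 10000 and was exceeded by 132 lesion cells.

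Within the early lesion, members went together across cells to differing degrees, most of all Wap with Glycam1. Of the 234 lesion cells with a Wap UMI after thinning, 88.9% also had a Glycam1 UMI, with a mean of 9.03, while 64.1% of the 807 cells without Wap had one, with a mean of 3.39. Lalba was found in 48.7% of the Wap cells and in 26.6% of the others. With Glycam1 it went less clearly. Lalba was found in 33.4% of cells with Glycam1 and 27.5% of those without, but at means of 0.913 and 0.981 UMIs. Pearson correlations of log-scaled levels over the 1041 lesion cells of at least 1000 UMIs describe the same pattern. They carry no test, since the cells share a library, its free RNA and their depth. Wap and Glycam1 had r = 0.46, Wfdc18 and Glycam1 r = 0.32, Wap and Lalba r = 0.30, Wfdc18 and Muc15 r = 0.27, and Lalba and Muc15 r = 0.046.

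Over 5089 genes found in at least 5% of those cells, the genes most like each member were mostly milk genes. For Wap these were Glycam1 (0.46), Csn1s2a (0.40), Csn2 (0.38), Spp1 (0.38) and Fabp3 (0.38), of which Csn1s2a and Csn2 encode caseins. For Glycam1 they were Csn1s2a (0.64), Csn2 (0.59), Csn1s1 (0.49), Csn3 (0.46) and Wap (0.46). For Wfdc18 they were Csn2 (0.50), Csn1s1 (0.47), Csn1s2a (0.46), Dbi (0.41) and Csn3 (0.37). Muc15 ranked caseins first as well, Csn2 (0.51), Csn1s1 (0.50) and Csn1s2a (0.45), then Plin2 (0.35), which coats lipid droplets, and Trf (0.33), which encodes transferrin. For Lalba they were Spp1 (0.39), Lao1 (0.39), Csn3 (0.37), Trf (0.36) and Wap (0.30).

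Over the 312 tumor cells of at least 1000 UMIs and 6721 genes, the genes most like Wfdc18 shared 2 names with its lesion list, Csn3 and Csn1s2a, and those most like Lalba and Muc15 shared 0. For Wfdc18 they were Csn3 (0.38), Csn1s2a (0.33), Tmsb4x (0.28), Arg1 (0.23) and Wfdc17 (0.23). For Lalba they were Mgst1 (0.31), Dad1 (0.30), Aqp5 (0.28), Spint2 (0.27) and Ssr2 (0.27), of which Dad1 and Ssr2 belong to the machinery of the secretory pathway. For Muc15 they were Pdia3 (0.42), Ppt1 (0.42), Pvrl4 (0.42), Epcam (0.41) and Cldn7 (0.41), and Muc15 also correlated with depth in these cells (r = 0.22 with log10 UMIs). Lalba and Wfdc18 had r = 0.15 with each other there.

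**Figure D3:**
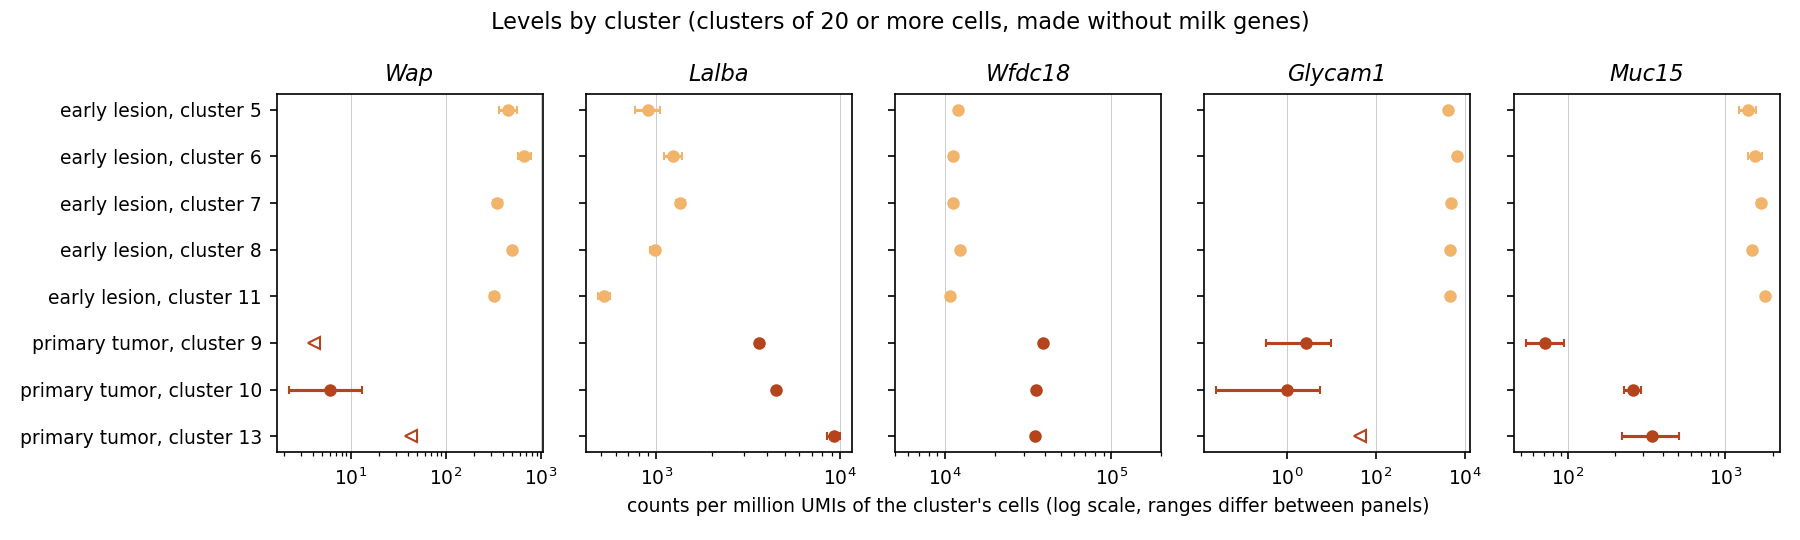
CPM (log axes with their own range per panel) of each gene in each cluster of at least 20 cells of the early lesion (light) and the primary tumor (dark), with exact 95% Poisson intervals and 0 counts drawn at 3 counts as open triangles. In this clustering, whose ranges widen when the cells are cut more finely, Wfdc18 differs 1.14-fold over lesion clusters, Lalba differs 2.61-fold over lesion clusters and 2.55-fold over tumor clusters, and Muc15 is lowest in tumor cluster 9.

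The clusters were made without the milk genes. The luminal-like cells of the mammary libraries fell in separate clusters, 6, 7, 8 and 11 for lesion cells and 9 for tumor cells. In the lesion Lalba was highest in cluster 7 (1348 CPM, 319 cells), whose leading genes included the immediate-early genes Atf3 and Fos, and lowest in cluster 11 (517 CPM, 255 cells), whose leading genes included Ccnb1 and Cdc20, genes of mitosis. Wap was highest in cluster 6 (671 CPM, 237 cells), the shallowest of the luminal-like clusters at a median of 898 UMIs, and lowest in cluster 11 (321 CPM). Glycam1 was highest in the same cluster 6 (6864 CPM) and ranged 1.59-fold over the 5 lesion clusters of at least 20 cells. Muc15 was highest in cluster 11 (1782 CPM), the reverse of Lalba, with a range of 1.28-fold. Wfdc18 ranged 1.14-fold. Of the luminal-like lesion clusters, cluster 11 was thus the lowest for Lalba and Wap and the highest for Muc15, and for Wfdc18 it was the lowest by a small margin. Cluster 11 was also the deepest of them, at a median of 5341 UMIs, and the part of depth in its levels was not tested. The ranges over clusters depend on how finely the cells were cut. In a finer clustering, also made without the milk genes, 56 lesion cells fell in a cluster of 60 whose leading genes included Hp, Lrg1 and Spp1. It was the highest of 10 lesion clusters for Lalba (4012 CPM) and the lowest for Glycam1 (841 CPM), Muc15 (682 CPM) and Wfdc18 (6572 CPM). The ranges over lesion clusters were then 9.68-fold for Lalba, 8.75-fold for Glycam1, 3.33-fold for Wap, 2.67-fold for Muc15 and 1.99-fold for Wfdc18. With all genes in the clustering, where the members themselves shape the clusters, they were 11.2-fold, 6.04-fold, 3.23-fold, 2.06-fold and 2.34-fold in the same order.

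In the tumor, Wfdc18 stood between 34835 and 38913 CPM in the 3 clusters of at least 20 cells. Lalba stood at 3621 CPM in cluster 9 (321 luminal-like cells), 4486 CPM in cluster 10 (21 cells) and 9217 CPM in cluster 13. Cluster 10 had a median of 35541 UMIs over its 25 cells of all libraries. Cluster 13, of 67 cells, had a median mitochondrial share of 12.1%, against 0.396% in cluster 9, and clusters 10 and 13 were left unnamed. The mammary luminal list scored best in cluster 13 and second in cluster 10. Of its 13 markers, 11 were raised in cluster 13 and 12 in cluster 10, against 8 in cluster 9. Tumor values for mammary luminal-like cells alone thus leave out clusters 10 and 13, although both carried luminal markers. Muc15 stood at 71.9 CPM in cluster 9, 257 CPM in cluster 10 and 341 CPM in cluster 13. Lalba and Muc15 thus had their highest tumor levels in the cells of highest mitochondrial share. The part of RNA quality in this was not tested.

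Free RNA was measured in barcodes of 1 to 50 UMIs. In the early lesion its level was 402 CPM for Wap, 1175 CPM for Lalba, 11233 CPM for Wfdc18, 4657 CPM for Glycam1 and 1579 CPM for Muc15, so that the ratio of cells to free RNA ran from 0.772 (Lalba) to 1.04 (Glycam1). In the primary tumor it was 3535 CPM for Lalba, 27036 CPM for Wfdc18 and 165 CPM for Muc15, with 1 count of Glycam1 and 0 of Wap. Tumor and lesion differed in free RNA in the same direction as in cells for all 5 genes.

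Free RNA can give a cell a UMI of a milk gene that it does not express. The 29 lesion cells of endothelial-like, pericyte or smooth muscle-like and fibroblast-like classes, taken as classes without milk gene expression, were set beside luminal-like cells. Whether their milk UMIs came from free RNA, from doublets or from misnamed cells was not tested. Of these cells, 58.6% had a Wfdc18 UMI, against 98.7% of luminal-like cells, at a median of 1048 and 2478 UMIs per cell. For Glycam1 the shares were 44.8% and 81.8%, for Muc15 17.2% and 86.9%, for Lalba 17.2% and 46.8%, and for Wap 10.3% and 35.3%. Their summed levels were 1539 CPM for Wfdc18, 1273 CPM for Glycam1, 212 CPM for Muc15 and 186 CPM for each of Lalba and Wap, against luminal-like levels of 11314, 4910, 1645, 918 and 407 CPM. These pooled levels hide a spread between the classes. The 5 fibroblast-like cells stood at 4191 CPM for Glycam1 (30 counts) and at 698 CPM for Wap (5 counts, all in 1 cell), the latter above the luminal-like level. The 16 pericyte or smooth muscle-like cells stood at 650.2 CPM for Glycam1 and 46.4 CPM for Wap. Glycam1 is also known from the high endothelial venules of lymph nodes, and the 8 endothelial-like lesion cells stood at 444 CPM (interval 121 to 1137), below the luminal-like level. In the tumor 2 cells were of such a class, too few to give a background share, so the 17.3% of tumor cells with a Muc15 UMI could only be set beside 5.32%, the share that free RNA would give if it made 10% of every cell's UMIs.

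In the early lung, all 5 genes were called lower than in the early lesion and 0 of 5 higher, where 11.9% of the 8776 genes tested were called lower and 22.1% higher, with a median log2 ratio of 0.18 over all genes. Over all genes the split was 1941 higher to 1047 lower, and 1608 to 1366 when CPM was taken over the UMIs outside milk genes. Early lung cells held 7 Wfdc18, 4 Glycam1 and 1 Muc15 counts. The log2 ratio to the lesion was -8.25 (interval -9.66 to -7.31) for Wfdc18, -7.77 (interval -9.82 to -6.59) for Glycam1 and -7.78 (interval -13.66 to -5.88) for Muc15. With 0 counts and a floor of 3 counts in the lung sum, Wap was at least 27.5-fold and Lalba at least 61.6-fold lower. The 12 UMIs lay in 11 cells, none of them luminal-like, with 2 in an endothelial-like cell of 11411 UMIs and 1 in each of the others. Their levels in lung cells were below those of the library's own free RNA, which were 325 CPM for Wfdc18 and 116 CPM for Glycam1, against 34.4 and 19.6 CPM in cells.

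In the late lung, 3 of the 5 genes reached 20 counts together with the primary tumor. All 3 were called lower and 0 higher, where 17.4% of 8740 genes were called lower and 20.6% higher, with a median log2 ratio of 0.015. Lalba had a log2 ratio of -8.98 (interval -11.48 to -7.66), Wfdc18 of -5.02 (interval -5.15 to -4.89) and Muc15 of -5.71 (interval -11.60 to -3.81). Wap and Glycam1 had 0 counts in late lung cells and 6 and 3 in tumor cells, too few to compare.

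Late lung against early lung, Wfdc18 was the single member with enough counts and was called higher, at 1138 CPM (interval 1038 to 1246) against 34.4 CPM (interval 13.8 to 70.8), a log2 ratio of 4.95 (interval 3.995 to 6.37). Called higher among all 4552 genes were 8.7% and called lower 3.45%, with a median log2 ratio of 0.046, and 8 genes had a higher ratio than Wfdc18. The split over all genes was 396 to 157, and 369 to 293 when each cell weighed the same.

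Single cells carried this difference. A single late lung cell held 346 of the 469 Wfdc18 counts, and the next held 55, 42 and 13. All 4 cells were mammary luminal-like, 3 in cluster 9, the tumor's cluster, and 1 in cluster 7, a lesion cluster. Without the highest cell the log2 ratio was 3.05. Without the 7 luminal-like cells it was -0.08 (interval -1.47 to 1.53) on 13 late lung counts, and the call was lost. The other 10 late lung cells with Wfdc18 had 1 or 2 UMIs each, 6 of them in endothelial-like cells.

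**Figure D4:**
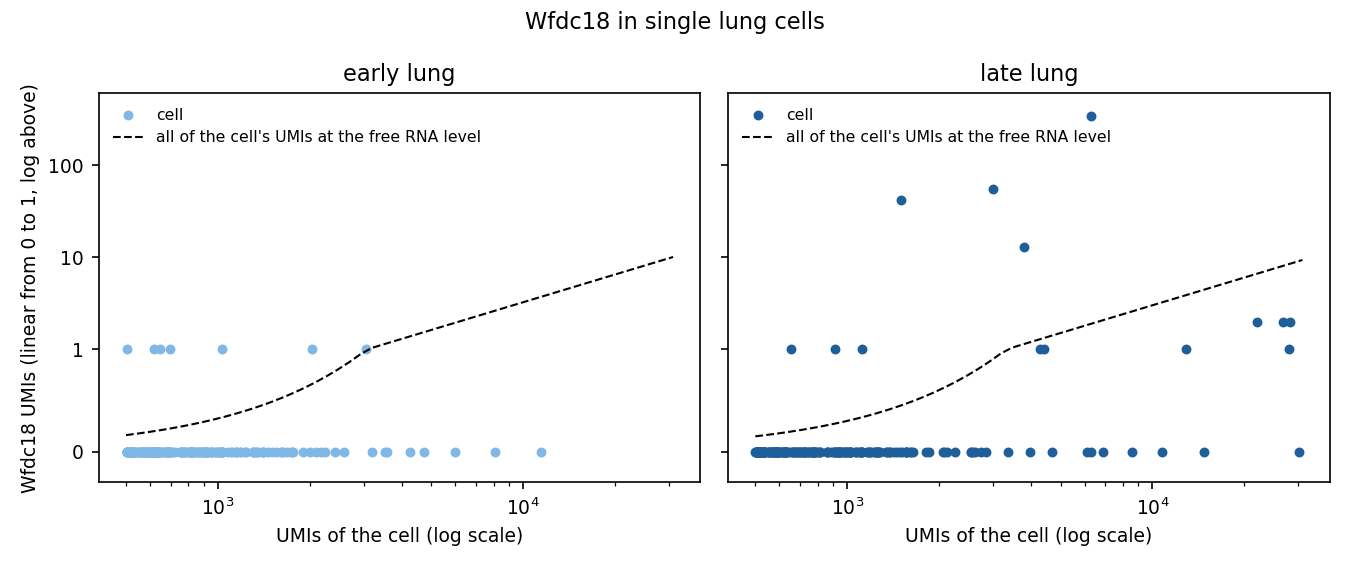
Wfdc18 UMIs (vertical axis, linear from 0 to 1 and logarithmic above) against all UMIs (log axis) in each of 185 early lung and 210 late lung cells. The dashed line gives the UMIs expected if the whole cell were free RNA of its library, and 4 late lung cells, with 13 to 346 UMIs, lie far above it.

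These 4 late lung cells had 6308, 2994, 1496 and 3791 UMIs and mitochondrial shares of 0.134% to 0.234%. None of them had a Wap, Glycam1 or Muc15 UMI, and 1 Lalba UMI was found in the highest. The highest cell also held 42 UMIs of Csn3 (kappa-casein), 32 of Trf, 5 of Epcam (an epithelial adhesion molecule) and 5 of Krt18, and the lung airway gene Scgb1a1 at 20 UMIs. Over the 7 luminal-like cells, 24261 UMIs in all, pooled Wfdc18 stood at 18796 CPM (interval 17110 to 20603). The lesion and tumor luminal-like levels were 11314 and 39208 CPM. All of the pooled counts lay in the 4 cells, from 13 of 3791 UMIs to 346 of 6308, and the remaining luminal-like cells had none. The pooled level is thus not that of a typical cell. Over the same 7 cells, 0 Glycam1 counts allowed up to 124 CPM (3 counts), against 4910 CPM in lesion luminal-like cells. The barcodes of the 4 cells held at most 7 UMIs in the early lesion library and at most 7 in the primary tumor library.

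Free milk RNA in the lung libraries had a different makeup from these cells. Of the 123 member UMIs in late lung barcodes of 1 to 50 UMIs, 13.0% (interval 7.62 to 20.3) were Glycam1 and 78.0% Wfdc18. In the early lung, 23.3% of 116 were Glycam1, against 24.5% for the early lesion and 0.00443% for the primary tumor. So Glycam1 was present in late lung free RNA although neither late lung cells nor tumor free RNA held more than 1 count of it.

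Some of these UMIs sat in barcodes that were cells of another library. Of 131 member UMIs outside called cells in the early lung, 38 (29.0%, interval 21.4 to 37.6) lay in barcodes that were early lesion cells, although those barcodes held 0.656% of the library's UMIs outside cells. In the late lung it was 29 of 153 (19.0%, interval 13.1 to 26.1), against 0.346% of such UMIs. For Glycam1 alone the counts were 15 of 27 in the early lung and 10 of 16 in the late lung. Barcodes that were primary tumor cells held 9 of the 131 and 10 of the 153, and 0 of either library's Glycam1. These values cover UMIs outside called cells only, most of which lay in no cell barcode of a mammary library, and passage between libraries was not tested.

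The other milk genes, caseins, lipid-synthesis and iron-binding proteins among them, also split between lesion and tumor. Of 31 in the list, 27 had at least 20 counts, of which 5 were called higher, 16 lower and 6 neither, with a median log2 ratio of -1.84 against 0.33 over all genes. Of all genes tested, 24.5% were called higher and 6.68% lower. The 4 with the interval farthest from no change were Csn2 (beta-casein), at 52379 CPM in lesion cells and 64.1 CPM in tumor cells (log2 ratio -9.67), Spp1 (osteopontin), at 3696 and 4.93 CPM (-9.47), Aqp5 (a water channel), at 25.2 and 3471 CPM (7.10), and Fabp3 (a fatty acid carrier), with 857 lesion counts and 0 tumor counts, at least 133-fold lower. These values are sums over all tumor cells and are not given without the deep cells. Aqp5 was among the leading genes of tumor clusters 10 and 13, but not of cluster 9. The list made 15.1% of the UMIs of lesion cells and 5.19% of those of tumor cells, while the 5 whey and mucin genes went the other way in sum. Against the lesion, 21 of 26 other milk genes were called lower in the early lung and 3 higher (11.9% and 22.1% of all genes). Against the tumor, 14 of 20 were called lower in the late lung and 2 higher (17.4% and 20.6% of all genes). Late lung against early lung, 3 of 11 were called higher and 0 lower (8.7% and 3.45% of all genes).

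The genes of prolactin signaling and of alveolar fate showed no common direction between lesion and tumor. Of 21 in the list, 17 had enough counts, of which 4 were called higher, 2 lower and 11 neither, with a median log2 ratio of 0.46. Of all genes tested, 24.5% were called higher and 6.68% lower, with a median of 0.33. Elf5, a transcription factor of alveolar fate, was lower in the tumor (882 CPM against 211 CPM, log2 ratio -2.06). Nfib, an NFI factor, was higher (163 and 662 CPM, 2.02). Of the feedback inhibitors of cytokine signaling in the list, Socs2 was higher (14.0 and 982 CPM, 6.12). Socs3 was lower (13.5 and 0.548 CPM, -4.05), on 53 lesion counts and 1 tumor count (interval -9.95 to -2.08). That tumor count lay below the floor of 3 counts. Cish was not called (24.2 and 14.8 CPM, -0.69). The prolactin receptor gene Prlr was at 24.2 CPM (lesion) and 48.7 CPM (tumor), a log2 ratio of 1.01, and Stat5a at 89.9 and 57.0 CPM (-0.65), which was not called. Against the lesion, 3 of 16 of these genes were called higher and 6 lower in the early lung (22.1% and 11.9% of all genes). Against the tumor, 2 of 15 were called higher and 8 lower in the late lung (20.6% and 17.4% of all genes). Late lung against early lung, 2 of 8 were called higher and 0 lower (8.7% and 3.45% of all genes).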

How the data were processed

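Single-cell libraries (10x Chromium 3′ kit, version 2) of sorted CD45- HER2+ cells were compared, 1 per group, for 5 genes. The authors deposited counts: whole-number UMI counts per gene and barcode, not normalized, with 737280 barcodes listed per library. The submitters' processing notes name the mm10 build. The sources used here name no aligner or annotation. The members, lists and rules were chosen with earlier results of these data known.

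Barcodes with at least 500 UMIs, at least 250 genes and at most 20% mitochondrial UMIs were called cells. UMIs were summed per library and scaled to CPM. Ratios had 0.5 counts added to each sum and exact conditional-binomial 95% intervals of Poisson counts, and levels had exact Poisson intervals. The intervals treat UMIs as independent and are too narrow where few cells hold most counts. A count of 0 was given a floor of 3 counts per library sum. With 1 library per group no test was made. The rule for names was the 5 members, the 4 genes of each list whose interval lay farthest from a ratio of 1, and the 5 genes most like each member. Other names (cluster-leading genes, the remaining genes of single lung cells, Prlr, Stat5a and Cish) were chosen after their values were seen.

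All cells were clustered together without integration in scanpy 1.11.5 (10000 per cell, log scale, 2000 variable genes, 30 components, 15 neighbours, Leiden resolution 1.0). Clusters were named from marker lists, so names may differ from the study's own. Doublets were kept. Scrublet called 3 doublets among late lung cells, 4 among primary tumor cells and 0 in either early library. Scripts were tested on simulated data. Alternatives were other cell and mitochondrial limits, leaving out deep cells, doublets or single classes of cells, other scalings, added counts, free RNA subtraction, thinning and clustering settings.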

Additional observations from a re-analysis of the deposited data

How the results depend on the processing

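All 5 log2 ratios of tumor to lesion kept their sign and their call in all 10 alternatives, with ranges of -9.74 to -6.08 for Wap, 1.98 to 2.32 for Lalba, 1.59 to 1.81 for Wfdc18, -11.43 to -10.11 for Glycam1 and -4.43 to -3.06 for Muc15. Without cells of over 10000 UMIs they were -9.34 for Wap, 2.14 for Lalba, 1.77 for Wfdc18 and -3.81 for Muc15. In mammary luminal-like cells alone, which leave out tumor clusters 10 and 13, they were -9.26 for Wap, 1.98 for Lalba, 1.79 for Wfdc18 and -4.43 for Muc15. With each cell weighted equally they were -9.74 for Wap, 2.13 for Lalba and 1.81 for Wfdc18. With CPM taken outside milk genes they were 2.11 for Lalba and 1.59 for Wfdc18, and with 10% of each sum subtracted as free RNA 2.32 and 1.76. In the first 2 settings the tumor had 0 Wap counts, so the Wap value rests on the 0.5 counts added. With equal weighting the tumor's Wap sum came to 0.316 counts, so that value also leans on the 0.5 counts added. The cause of the other shifts was not tested. Equal weighting moved the median over all genes in this comparison by -0.16, mammary luminal-like cells alone by -0.15, leaving out deep cells by -0.13 and CPM outside milk genes by -0.13. The last moved it by -0.27 for early lung over lesion and by -0.14 for late lung over tumor. Lesion luminal-like levels depended on the clustering. With all genes in it they were 1148 CPM for Lalba, 480 CPM for Wap and 5530 CPM for Glycam1. In the main clustering they were 918, 407 and 4910 CPM.

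Late lung over early lung, 0 members were called higher without the luminal-like cells, where the Wfdc18 log2 ratio was -0.08, against 3.05 without the highest cell alone. These 2 settings were chosen after seeing the data. Over all 4552 genes the calls went from 396 higher and 157 lower to 138 and 136 without cells of over 10000 UMIs, and to 169 and 157 with 5 counts added. With 5 counts added they were 1996 and 415 for early lung over lesion and 1889 and 783 for late lung over tumor. No paired analysis was possible because each group had 1 library. Depth limits the lung values most: 3 counts make 14.7 CPM in the early lung and 7.28 CPM in the late lung, but 0.764 CPM in the early lesion and 1.64 CPM in the primary tumor.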

Other observations

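Over the 1041 early lesion cells of at least 1000 UMIs, the genes least like Lalba were Ptma (r = -0.28), Hmgb2 (-0.27) and H2afz (-0.25), of which Hmgb2 and H2afz encode chromatin proteins that are high in dividing cells. For Wfdc18 and Muc15 the gene least like them was Ifitm3 (-0.39 and -0.29), an interferon-induced membrane protein. For Wap it was Rpl3 (-0.19), which encodes a ribosomal protein. In the tumor, Clic6 (-0.32) and Aldoa (-0.30) were least like Wfdc18. These values describe cells of 1 library each and carry no test.

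Levels also varied with the depth of the cell. In the early lesion, Lalba stood at 1348 CPM in the 277 cells of 500 to 999 UMIs and at 659 CPM in the 21 cells of over 10000 UMIs, while Wap went from 363 to 608 CPM and Glycam1 from 3687 to 6305 CPM over the same classes. Muc15 stood at 1702 and 2106 CPM. In the primary tumor, Muc15 stood at 320.1 CPM in 122 cells of 500 to 999 UMIs, at 10.9 CPM (1 count) in 15 cells of 5000 to 10000 UMIs and at 256 CPM in the 18 cells of over 10000 UMIs, whose median mitochondrial share was 4.63% against 0.362% in those 15. Wfdc18 stood between 35452 and 50408 CPM over the 5 depth classes of the tumor.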
